A study of Mus musculus with 21 samples.

Results

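Lung transcripts 12 h after a fungal extract were compared with those 3 h after it. The members are the 3 arrays of mouse lung taken 12 h after MACA, a crude antigen of the fungus Metarhizium anisopliae, and the 4 arrays taken 3 h after it, 7 of the 21 arrays of the series. They were chosen by their titles, and all 22626 non-control probe sets were used. The extract had been given once, by aspiration into the trachea, at 20 µg in 50 µl of Hank's balanced salt solution (HBSS) to female BALB/c mice aged 8 weeks. Lungs of mice given bovine serum albumin (BSA), 20 µg in the same 50 µl, or the 50 µl of HBSS alone gave the time difference without extract, with 3 arrays a treatment at 3 h and 4 at 12 h. Each array measured RNA of 1 snap-frozen whole left lung, homogenised, and the labels call the arrays biological replicates. The comparison asks how lung transcripts differed between an early and a later time after the extract.

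An inhaled microbial extract is sensed by pattern recognition receptors on macrophages and epithelium, which switch on NF-kB and MAP kinase signalling. Transcripts of immediate early genes, cytokines and NF-kB's own inhibitors are made within the first hours and are short-lived, whereas acute phase, interferon-stimulated and tissue remodelling transcripts follow more slowly. The lung also has a circadian clock, so samples taken at different hours of the day differ in clock genes and in genes driven by the daily peak of corticosterone.

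In whole lung, fewer cells of a type and less RNA per cell cannot be told apart. Values are log2(intensity + 16) after quantile normalization, on which 4.00 is a probe set listed at or below 0 and 5.83 is the noise level of the arrays. A change is the 12 h mean minus the 3 h mean with its standard error (SE), and a gene rose or fell where limma's p, adjusted over all probe sets by the Benjamini-Hochberg method, was under 0.05. Where a gene lay under the noise level on every array of 1 group, a lower bound of its fold ("at least") is given. Array medians of the deposited intensity were 123 to 157 in the MACA groups. Pearson correlation between MACA arrays was 0.979 to 0.989 within a time and 0.971 to 0.981 between times, over probe sets.

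Arrays stood apart in several ways. The ratio of 2 probe sets of a spiked hybridization control was 1.62 to 1.91 on 13 arrays and 0.939 to 1.22 on 8. Of the 8 low arrays 4 were the HBSS 12 h group, so in HBSS the technical set and the time cannot be told apart. The others were MACA 3 h replicates 3 and 4 and the same-numbered replicates of BSA 12 h. BSA 12 h replicates 3 and 4 also stood apart on the second principal component, at -45.25 and -33.84. BSA 12 h replicate 4 had the highest ratio of 3′ to 5′ probe sets of Gapdh, 1.492, where the next array gave 1.099. Its β-actin ratio, 1.693, was the highest too, where the next array gave 1.507. The part of RNA quality in the BSA results was not tested. Finally, the 12 h arrays of HBSS and BSA each fell into pairs for several epithelial genes. Prss22, for example, read 8.04, 7.64, 5.08 and 5.39 on HBSS 12 h replicates 1 to 4 and 8.21, 8.31, 5.59 and 5.20 on BSA 12 h replicates 1 to 4. The 3 MACA 12 h arrays, all of the high set, read 4.66, 5.02 and 4.74 for it. For some results, values are also given without replicates 1 and 2, or without replicates 3 and 4. Where no such value is given, a difference from HBSS or BSA may still rest on these arrays. The replicates were left out of HBSS 12 h and BSA 12 h together, an alternative chosen after seeing the data.

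At 12 h, 649 of 12393 genes were higher than at 3 h after MACA (5.24%) and 612 were lower (4.94%), 1261 in all (10.2%), each gene taken by its brightest probe set. These were 1014 probe sets higher (4.48% of all) and 1049 lower (4.64%), 2063 in all (9.12%). Changes of at least 2-fold were fewer, 81 genes higher (0.654%) and 142 lower (1.15%). The 2 groups of arrays did not overlap in 2640 genes (21.3%), and the median change of all genes was 0.00. Without MACA 12 h replicate 2 the number of probe sets fell to 933, without replicate 3 to 1278, within the high set to 1137, and with the spread taken from the 7 MACA arrays alone to 889. With HBSS and BSA 12 h replicates 1 and 2 left out it was 2189, and with their replicates 3 and 4 left out 2427. Without any scaling between arrays 125 probe sets passed, and 93 of the 135 calls of genes named here by rule ended.

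The vehicle lungs differed between the times too. After HBSS, 473 genes were higher at 12 h (3.82%) and 444 lower (3.58%), 917 in all (7.4%), and after BSA 332 were higher (2.68%) and 186 lower (1.5%), 518 in all (4.18%). Of the 649 genes higher after MACA, 87 were also higher after HBSS (13.4% of the 649 and 18.4% of the 473) and 123 after BSA (19% and 37% of the 332). Of the 612 lower genes, 120 were also lower after HBSS (19.6%, and 27% of the 444) and 102 after BSA (16.7%, and 54.8% of the 186). Genes called in opposite directions were 2 and 9 against HBSS and 0 and 3 against BSA, of the higher and the lower genes. The HBSS count rests on the arrays used: it was 1569 probe sets (6.93%) with all arrays, 800 higher (3.54%) and 769 lower (3.4%), 533 without HBSS 3 h replicate 1, 728 without HBSS 12 h replicate 2 and 357 without HBSS 12 h replicates 1 and 2. With arrays scaled to 1 median the HBSS split was 557 higher and 835 lower, the BSA split 326 and 369, and that of MACA minus BSA 23 more positive and 19 more negative. The BSA count was 771 (3.41%) with all arrays, 441 higher (1.95%) and 330 lower (1.46%), 184 without BSA 3 h replicate 2, 371 without BSA 3 h replicate 1, 162 without BSA 12 h replicates 3 and 4, and 3121 without BSA 12 h replicates 1 and 2. The last count sets 12 h arrays of the low set against 3 h arrays of the high set, so time and technical set cannot be told apart.

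**Figure D1:**
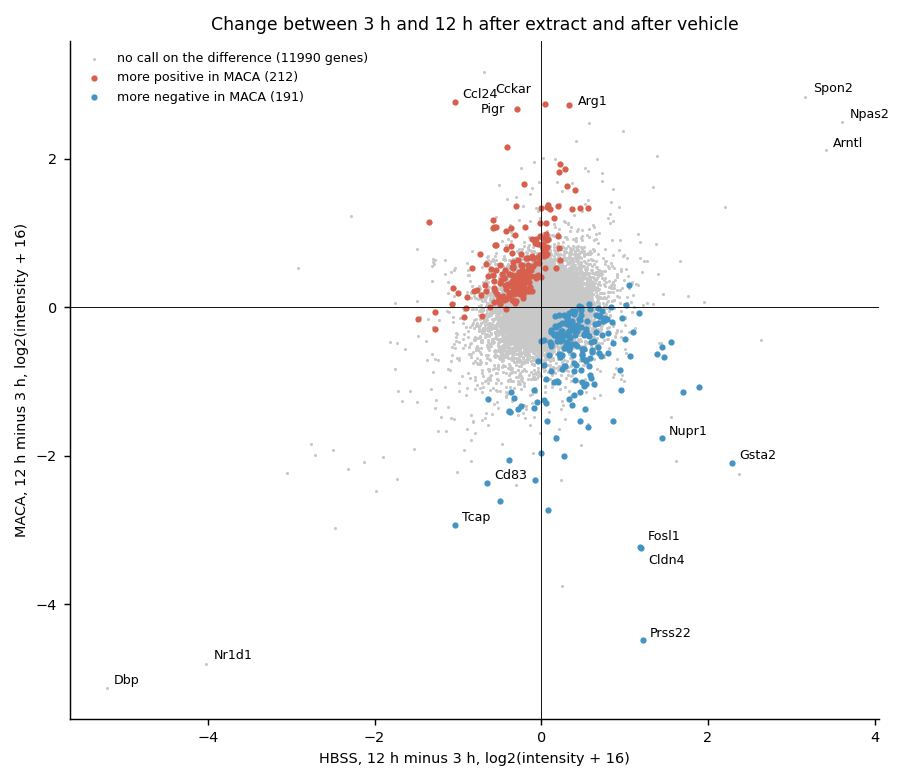
Change between 3 h and 12 h after MACA (vertical) against that after HBSS (horizontal), in log2(intensity + 16), 1 point a gene for 12393 genes, with the 212 genes whose change was more positive after MACA in red and the 191 more negative in blue. Clock genes such as Dbp and Nr1d1 lie low on both axes, Npas2 and Arntl high on both, while Prss22, Cldn4 and Fosl1 lie below 0 after MACA and above 0 after HBSS.

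Tested directly, the time difference after MACA differed from that after HBSS in 403 genes (3.25%), more positive after MACA in 212 (1.71%) and more negative in 191 (1.54%). Against BSA it differed in 63 genes (0.508%), more positive in 17 (0.137%) and more negative in 46 (0.371%). In probe sets these were 660 (2.92%), 344 more positive (1.52%) and 316 more negative (1.4%), and 106 (0.468%), 45 more positive (0.199%) and 61 more negative (0.27%). Both counts moved with the 12 h arrays that stood apart. Among the genes examined by name, 44 differed from HBSS, of which 13 passed whichever of the 14 arrays was left out, 33 did not pass in a model with a term for the technical set, and 26 and 12 did not pass without 12 h replicates 1 and 2 or 3 and 4. From BSA 16 differed, of which 2 passed whichever array was left out and 16, 0 and 14 did not pass under those settings. Among the differences from HBSS lost without 12 h replicates 1 and 2 were those of Acaa1b (adjusted p = 0.0614), Tnfaip3 (0.078), Scara5 (0.0871), Mcm6 (0.0972) and Dhcr7 (0.109). That of Nfkbiz was lost without replicates 3 and 4 (0.0577). With the term for the technical set, the named genes that still differed from HBSS were Fosl1, Atf3, Arg1, Mcm5, Gsta2, Inmt, Prss22, Cldn4, Nupr1, Srxn1 and Nqo1. Atf3 was at 0.0499 with the term, and without the term its call was lost without any one of 7 of 14 arrays. The term rests on MACA 3 h and BSA 12 h, the groups that hold both sets. In BSA 12 h the sets coincide with the pairs of replicates, and HBSS has a different set at each time. Passing in this model therefore does not show that a difference is free of the technical set. Against HBSS the count was 185 without HBSS 12 h replicates 1 and 2 and 1011 without replicates 3 and 4. In a model with a term for the technical set it was 370, with 136 more positive and 234 more negative. Against BSA it was 2031 without BSA 12 h replicates 1 and 2, 55 without replicates 3 and 4, 9 without BSA 3 h replicate 2, and 1 in a model with a term for the technical set. Without BSA 12 h replicates 1 and 2, the BSA arrays left are of the low set at 12 h and the high set at 3 h. Time and technical set then cannot be told apart in BSA.

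**Figure D2:**
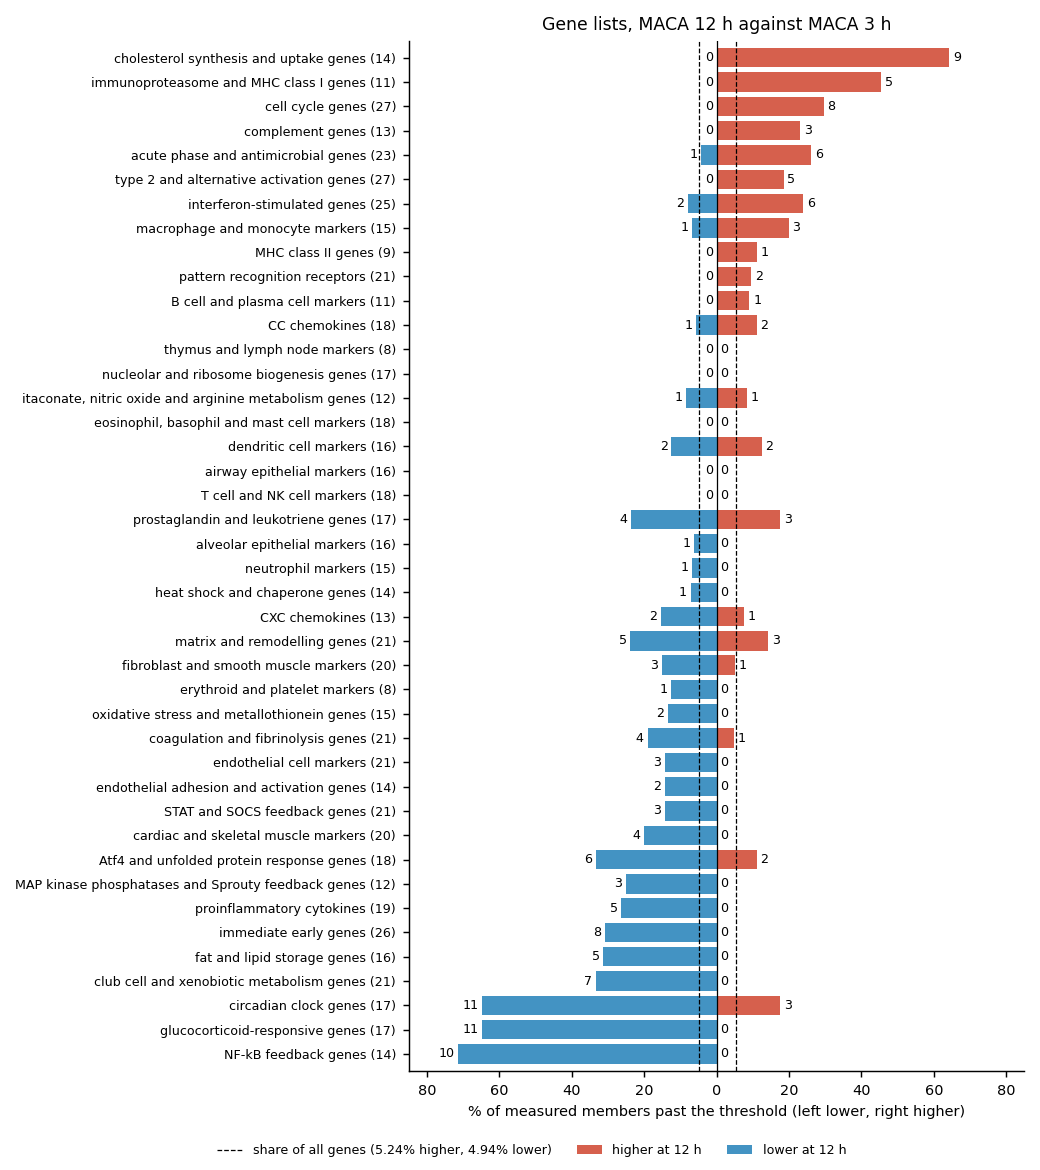
Share of the measured members of 42 gene lists (number measured in parentheses) past the threshold at 12 h against 3 h after MACA, lower to the left and higher to the right, in percent, with the number of genes at each bar and the share of all genes as dashed lines. Lists of NF-kB feedback, glucocorticoid-responsive and clock genes lie at the bottom (10 of 14, 11 of 17 and 11 of 17 lower), and cholesterol synthesis lies at the top (9 of 14 higher).

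Most feedback genes of NF-kB signalling fell. Of 14 measured NF-kB feedback genes, 10 fell and 0 rose, with a median change of -0.71 against 0.00 for all genes (4.94% of all genes fell). Tnfaip3 encodes A20, the ubiquitin-editing enzyme that shuts NF-kB signalling off. It read 8.99, 9.82, 9.81 and 10.36 on the 3 h arrays and 8.02, 7.74 and 7.30 on the 12 h arrays, a change of -2.06 ± 0.24 (SE, adjusted p = 8.98e-05). All 12 h arrays lay below all 3 h arrays, and Tnfaip3 stayed past the threshold whichever MACA array was left out. Bcl3, a nuclear IkB protein, fell by 1.30 ± 0.27 (adjusted p = 0.0073), and Zc3h12a, which encodes the cytokine mRNA nuclease Regnase-1, fell by 0.94 ± 0.21 (adjusted p = 0.0099; 0.0537 without MACA 12 h replicate 3). Nfkbiz fell by 0.78 ± 0.18 (adjusted p = 0.0119; 0.0644 without MACA 12 h replicate 2). Nfkb2, the p100 precursor, gave -0.33 ± 0.22 and did not pass by its brightest probe set (adjusted p = 0.415), while another probe set of Nfkb2 fell by 0.89 (adjusted p = 0.00635). Without MACA 12 h replicate 3 the list count was 6, and within the high technical set 4.

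Other NF-kB genes were chosen after their values were seen. Nfkbia, the inhibitor IkBα, was among the brightest, at 12.99, 13.16, 13.19 and 13.17 at 3 h and 12.70, 12.83 and 12.75 at 12 h, and its smaller change of -0.37 ± 0.09 passed (adjusted p = 0.0178) but did not pass without MACA 12 h replicate 1 (0.0647) or replicate 3 (0.0582). Among other probe sets of Nfkbia, those at -0.77 and -0.66 passed (adjusted p = 0.00857 and 0.0256), and that at -0.09 did not (adjusted p = 0.877). Birc3, an inhibitor of apoptosis, fell by 0.72 ± 0.12 (adjusted p = 0.0017) and Relb, an NF-kB subunit, by 0.70 ± 0.17 (adjusted p = 0.0157; 0.0556 without MACA 12 h replicate 1 and 0.178 within the high technical set). Over the same interval 1 gene of the list fell after HBSS, Birc3 (-0.46, adjusted p = 0.0337), and 1 after BSA. The differences of Birc3, Relb and Nfkbia between MACA and HBSS did not pass (adjusted p = 0.462, 0.109 and 0.152). The change differed from that after HBSS for Tnfaip3 (-1.67, adjusted p = 0.0199; 0.0586 without HBSS 3 h replicate 3) and Nfkbiz (-1.19, adjusted p = 0.0226; 0.0586 without HBSS 3 h replicate 3 and 0.0651 without MACA 12 h replicate 2). From that after BSA it differed for Tnfaip3 (-1.69, adjusted p = 0.0438, lost without any one of 10 of 14 arrays). In a model with a term for the technical set these differences did not pass. Adjusted p was then 0.18 for Tnfaip3 and 0.1 for Nfkbiz against HBSS, and 0.343 for Tnfaip3 against BSA.

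Promoters of 2 genes that fell, Nfkbia and Csf1, are shown because each holds a match to an NF-kB motif, in capitals. The windows run from 250 bases before to 50 after the RefSeq start, in assembly GRCm38.p6, written 5′ to 3′ on the gene's strand. The motif searched was GGGA, any base, then TTTCC, on both strands. A gene was counted where any of its promoters held the motif. The motif was found in 0.466% of 27025 genes with a promoter entry. It was in 2 of 12 such genes of the NF-kB list (16.7%) and in 2 of 15 of the cytokine list (13.3%). Among the genes with a promoter entry it was in 0.855% of the 468 that fell and 0.377% of the 530 that rose, beside 0.597% over the genes measured on the arrays. A match is a description, not a site.
Nfkbia, chr12:55492598-55492897, minus strand: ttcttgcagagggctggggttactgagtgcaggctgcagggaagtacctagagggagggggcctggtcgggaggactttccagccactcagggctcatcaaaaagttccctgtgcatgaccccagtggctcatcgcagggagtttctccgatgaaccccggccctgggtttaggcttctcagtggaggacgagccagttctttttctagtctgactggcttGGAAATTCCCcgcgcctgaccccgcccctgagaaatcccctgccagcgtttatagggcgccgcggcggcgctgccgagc
Csf1, chr3:107760420-107760719, minus strand: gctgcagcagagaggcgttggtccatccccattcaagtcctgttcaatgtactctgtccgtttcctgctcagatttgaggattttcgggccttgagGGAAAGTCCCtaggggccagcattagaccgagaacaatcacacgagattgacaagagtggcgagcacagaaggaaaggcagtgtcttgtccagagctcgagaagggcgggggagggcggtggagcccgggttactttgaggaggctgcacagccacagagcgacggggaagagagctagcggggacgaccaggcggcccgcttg

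Some immediate early transcription factors fell as well. Of 26 measured members 8 fell and 0 rose, with a median of -0.50. Fosl1, an AP-1 subunit induced in epithelium, read 7.63, 7.54, 7.63 and 7.99 at 3 h and 4.30, 4.67 and 4.44 at 12 h, at least 3.65-fold lower (change -3.23 ± 0.62, adjusted p = 0.004). It was under the noise level on all 12 h arrays. Atf3, a stress-induced repressor, fell by 1.76 ± 0.32 (adjusted p = 0.0025) and Zfp36, which encodes the mRNA decay factor tristetraprolin, by 1.07 ± 0.18 (adjusted p = 0.0016). Fosb fell by 1.03 ± 0.26 (adjusted p = 0.0209), but its adjusted p was above 0.05 without MACA 3 h replicate 4 or without any 12 h array (0.0527 to 0.0761).

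Egr1, a zinc finger factor of the same class, read 11.97, 12.03, 11.69 and 12.49 at 3 h and 11.42, 11.50 and 11.23 at 12 h and did not pass (-0.66 ± 0.31, adjusted p = 0.213). Ier3 gave -0.25 ± 0.14 (adjusted p = 0.335). After HBSS, Egr1 rose by 1.06 (adjusted p = 0.0485), and its change differed between MACA and HBSS (-1.72, adjusted p = 0.0434, lost without any one of 10 of 14 arrays). The count for the list was 5 without MACA 3 h replicate 4 or MACA 12 h replicate 1, 4 without MACA 12 h replicate 2, and 5 in a model with a term for the technical set. Of 12 phosphatase and Sprouty-type inhibitors of MAP kinases, 3 fell and 0 rose (1 fell without MACA 3 h replicate 2 or 12 h replicate 3). Dusp16, a phosphatase of JNK and p38, fell by 0.56 ± 0.08 (adjusted p = 0.000464), while Dusp1, at 12.46, 12.49, 12.20 and 12.52 at 3 h and 12.47, 11.70 and 11.84 at 12 h, did not pass.

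Colony-stimulating factors were among the cytokines that fell. Of 19 measured cytokines 5 fell and 0 rose, with a median of -0.24. Csf2 (GM-CSF) read 8.96, 9.25, 9.72 and 9.65 at 3 h and 6.53, 7.59 and 7.41 at 12 h (-2.22 ± 0.29, adjusted p = 0.000271). Csf3 (G-CSF), the granulocyte growth factor, read 6.54, 6.81, 6.52 and 7.70 at 3 h and was under noise on all 12 h arrays, at 4.09, 4.81 and 4.81, so it was at least 2.09-fold lower (adjusted p = 0.0012). Csf1, the macrophage growth factor, fell by 0.96 ± 0.18 (adjusted p = 0.0028), while 2 dimmer probe sets of Csf1, at -0.60 and -0.64, did not pass (adjusted p = 0.0691 and 0.0603). The groups did not overlap for any of these, and each kept its call whichever MACA array was left out. After HBSS, Csf2 fell by 1.01 (adjusted p = 0.0496), and the difference between the changes of Csf2 after MACA and HBSS did not pass (adjusted p = 0.125).

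Tslp, an epithelial cytokine that primes dendritic cells for allergic responses, read 7.72, 8.04, 7.49 and 8.00 at 3 h and 6.31, 6.03 and 6.54 at 12 h (-1.52 ± 0.18, adjusted p = 7.66e-05). It fell after HBSS (-0.71, adjusted p = 0.0233) and BSA (-0.70, adjusted p = 0.0386) too, and the differences between these changes and that after MACA did not pass (adjusted p = 0.0868 and 0.125). Il33, another epithelial alarmin, gave -0.24 ± 0.22 after MACA (adjusted p = 0.577), and fell by 0.79 after HBSS (adjusted p = 0.0407) and by 1.08 after BSA (adjusted p = 0.0154). The change after MACA was more positive than after HBSS or BSA in 0 genes of the list, so the differences of Il33 did not pass. Il1b, at 10.90, 11.65, 11.14 and 11.55 at 3 h and 11.02, 10.81 and 10.41 at 12 h, did not pass (adjusted p = 0.64). Il6 and Tnf, chosen after their values were seen, gave -1.85 ± 0.57 (adjusted p = 0.054) and 0.40 ± 0.50 (adjusted p = 0.704).

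Most chemokines did not pass, and the calls that did were mostly lost without single arrays. Of 13 CXC chemokines 1 rose and 2 fell, and of 18 CC chemokines 2 rose and 1 fell. The neutrophil attractant Cxcl1 read 11.65, 12.00, 11.97 and 12.40 at 3 h and 9.98, 10.72 and 10.70 at 12 h; the groups did not overlap, but the SE shared by the 21 arrays was 0.72 and the change of -1.54 did not pass (adjusted p = 0.212). Cxcl2 and Ccl2 were chosen after their values were seen. Cxcl2 read 10.52, 11.13, 11.55 and 11.75 at 3 h and 9.32, 9.19 and 8.99 at 12 h, without overlap, and did not pass (-2.07 ± 0.75, adjusted p = 0.101). Its standard deviation was 0.54 and 0.17 in the MACA groups and 0.63 to 1.72 in the others. Ccl2 gave -1.09 ± 0.50 (adjusted p = 0.207). Ccl4 fell by 1.14 ± 0.33 (adjusted p = 0.0381), a call that ended without any one of the MACA arrays other than 3 h replicate 1. Cxcl9 and Cxcl10, both interferon-induced T cell attractants, moved apart. Cxcl9 rose by 1.48 ± 0.39 (adjusted p = 0.0245; 0.0516 to 0.133 without MACA 3 h replicate 1, 12 h replicate 2 or 12 h replicate 3), and Cxcl10 fell by 1.51 ± 0.43 (adjusted p = 0.0349; 0.0876 to 0.144 without MACA 3 h replicate 2, 3 h replicate 4, 12 h replicate 1 or 12 h replicate 3).

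Ccl8, a monocyte chemokine, was steadier, with 6.35, 6.34, 6.45 and 6.15 at 3 h and 7.99, 7.56 and 7.44 at 12 h (1.34 ± 0.20, adjusted p = 0.000712). Among signalling feedback genes of the STAT family 3 of 21 fell and 0 rose. Cish fell by 0.80 ± 0.17 (adjusted p = 0.0075) and Pim3 by 0.71 ± 0.15 (adjusted p = 0.0085), while Socs3 gave -0.50 ± 0.26 by its brightest probe set (adjusted p = 0.273), and its other probe sets -0.99 (adjusted p = 0.0191) and -0.45 (adjusted p = 0.548). Adhesion molecules of inflamed endothelium fell in 2 of 14 cases. Sele (E-selectin) read 6.85, 8.35, 7.60 and 8.69 at 3 h and 5.72, 6.19 and 5.82 at 12 h (-1.96 ± 0.35, adjusted p = 0.0023), and Icam1, which leukocytes bind as they leave vessels, fell by 0.56 ± 0.12 (adjusted p = 0.0064). Within the high technical set 0 of these 14 passed.

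Neutrophil markers, with 1 exception, did not pass. Of 15 markers 1 fell (Mmp8, -1.69 ± 0.42, adjusted p = 0.0177; 0.0646 without MACA 12 h replicate 2 and 0.0773 without replicate 3) and 0 rose. Their summed intensity was 14475 to 21529 at 3 h and 13767 to 19213 at 12 h after MACA, against 3111 to 9106 at 3 h after HBSS. S100a9, the alarmin subunit that neutrophils carry in bulk, read 11.77, 12.50, 11.70 and 11.93 at 3 h and 11.60, 11.35 and 10.80 at 12 h, without overlap, and did not pass (-0.73 ± 0.59, adjusted p = 0.52).

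**Figure D3:**
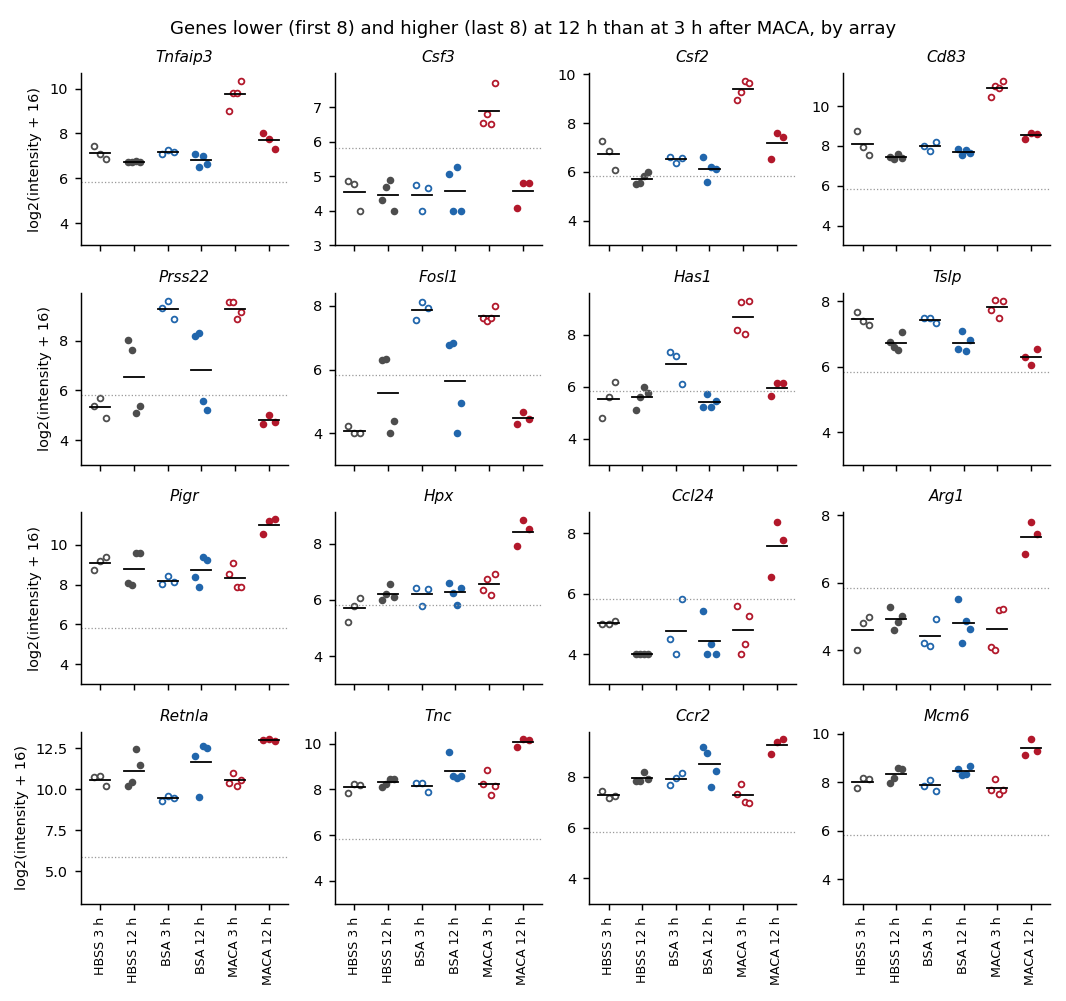
Values of 16 genes on each of the 21 arrays, in log2(intensity + 16), by treatment and time (open circles 3 h, filled circles 12 h, bars group means, dotted line the noise level of 5.83). Tnfaip3, Csf3, Csf2 and Cd83 are high on the 4 MACA 3 h arrays, Prss22 and Fosl1 are high on BSA and MACA 3 h arrays alike, and Ccl24 and Arg1 are above the noise level on the 3 MACA 12 h arrays.

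Cd83, a maturation marker of dendritic cells and activated lymphocytes, fell from 10.44, 11.02, 10.93 and 11.28 at 3 h to 8.37, 8.65 and 8.62 at 12 h (-2.37 ± 0.22, adjusted p = 1.74e-05). Its change after HBSS was -0.65 (adjusted p = 0.0887) and after BSA -0.28 (adjusted p = 0.51), and it differed from both (-1.71, adjusted p = 0.0135, 0.0586 without 12 h replicates 1 and 2; -2.08, adjusted p = 0.0173). The second difference of Cd83 did not pass without BSA 3 h replicate 2 (0.0585), without BSA 12 h replicates 3 and 4 (0.0624) or in a model with a term for the technical set (0.186). In that model the difference of Cd83 from HBSS did not pass either (0.0953). Of 16 dendritic cell markers 2 fell and 2 rose. Cd40, a costimulatory receptor, fell by 0.80 ± 0.19 (adjusted p = 0.0145; 0.0693 without MACA 12 h replicate 2 and 0.0729 without replicate 3), and Fscn1, an actin-bundling protein of mature dendritic cells, rose by 1.69 ± 0.36 (adjusted p = 0.0074), although 3 other probe sets of Fscn1 did not pass (0.54, 0.32 and 0.46). Without MACA 12 h replicate 2 or 3, 1 marker of the list fell. The markers' summed intensity was 4451 to 6091 at 3 h and 4376 to 4953 at 12 h.

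Several epithelial and stress genes were high at 3 h after MACA and BSA alike and lower at 12 h after MACA. Prss22, an airway serine protease, read 9.56, 9.57, 8.88 and 9.15 at 3 h and 4.66, 5.02 and 4.74 at 12 h, at least 11.0-fold lower (-4.49 ± 0.76, adjusted p = 0.0016). The BSA 3 h arrays read 9.31, 9.59 and 8.89, and the HBSS 3 h arrays were under noise (5.38, 5.68 and 4.91). Cldn4, a tight junction claudin of injured epithelium, read 8.73, 8.28, 8.94 and 8.88 at 3 h and 5.45, 5.89 and 5.08 at 12 h after MACA (-3.24 ± 0.64, adjusted p = 0.0049). Has1, a hyaluronan synthase, fell by 2.74 ± 0.38 (adjusted p = 0.000388), with no overlap between 8.05 to 9.30 at 3 h and 5.63 to 6.15 at 12 h, and its 3 h means were 6.88 after BSA and 5.54 after HBSS. Nupr1, a stress-induced nuclear protein, fell by 1.76 ± 0.47 (adjusted p = 0.0273), but not past the threshold without any 1 of 5 MACA arrays (0.0532 to 0.0824).

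After HBSS these genes gave 1.22 (Prss22, adjusted p = 0.385), 1.20 (Cldn4, adjusted p = 0.301), 1.18 (Fosl1, adjusted p = 0.289) and 1.45 (Nupr1, adjusted p = 0.0774), and the changes after MACA and HBSS differed by -5.70 (adjusted p = 0.0153), -4.44 (0.0199), -4.41 (0.018) and -3.21 (0.0215) in that order. The HBSS 12 h arrays were not alike. Replicates 1 and 2 read 8.27 and 8.04 for Cldn4 and 6.31 and 6.34 for Fosl1, and replicates 3 and 4 read 6.02 and 6.07, and 4.00 and 4.38, near the HBSS 3 h arrays. Leaving out replicates 1 and 2 at 12 h of HBSS and BSA gave differences of -4.40 for Prss22, -3.38 for Cldn4, -3.34 for Fosl1 and -2.49 for Nupr1, and leaving out replicates 3 and 4 gave -7.01, -5.49, -5.48 and -3.93. All 8 differences passed. Without HBSS 3 h replicate 3 the differences of Cldn4 (0.0501) and Nupr1 (0.051) did not pass, nor did that of Nupr1 without MACA 12 h replicate 2 (0.052). After BSA, Prss22 changed by -2.44 (adjusted p = 0.0856) and Fosl1 by -2.23 (adjusted p = 0.0588), and the differences from MACA did not pass (adjusted p = 0.342 and 0.608).

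Some acute phase and antimicrobial genes were higher at 12 h. Of 23 measured 6 rose and 1 fell, with a median of 0.65 (5.24% of all genes rose), and 0 passed after HBSS or BSA. Pigr, the receptor that carries IgA across epithelium, read 8.54, 9.07, 7.85 and 7.88 at 3 h and 10.54, 11.20 and 11.26 at 12 h (2.67 ± 0.45, adjusted p = 0.0015). Hpx, the haem scavenger hemopexin, read 6.36, 6.74, 6.18 and 6.93 at 3 h and 7.91, 8.84 and 8.53 at 12 h (1.88 ± 0.27, adjusted p = 0.000457). Both groups of arrays were apart for each gene, and both calls held whichever MACA array was left out. Orm2, an acid glycoprotein, was under noise on all 3 h arrays and at least 1.81-fold higher at 12 h (adjusted p = 0.0449), a call that ended without any one of 6 of the 7 arrays (0.0684 to 0.177).

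The pentraxin Ptx3, an early opsonin of fungi, fell by 1.26 ± 0.33 (adjusted p = 0.0224; up to 0.0963 without 1 of 4 MACA arrays). Lcn2, which withholds iron from bacteria, read 12.77, 12.91, 12.43 and 12.76 at 3 h and 13.26, 13.26 and 13.02 at 12 h, without overlap, and did not pass (0.46 ± 0.41, adjusted p = 0.562). Cd14, the LPS co-receptor, gave -1.48 ± 0.47 (adjusted p = 0.0617). The list count was 3 without MACA 3 h replicate 1, MACA 12 h replicate 2 or MACA 12 h replicate 3. The rise of Pigr exceeded its change after HBSS by 2.96 (adjusted p = 0.0226), and the difference was 2.19 without HBSS 12 h replicates 1 and 2 (adjusted p = 0.0446). This difference of Pigr ended without HBSS 3 h replicate 3 (0.0604), without MACA 12 h replicate 2 (0.0629) or in a model with a term for the technical set (0.078). The rise of Hpx exceeded its change after BSA by 1.80 (adjusted p = 0.0478), a call lost without any one of 11 of the 14 arrays.

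Genes of type 2 and alternatively activated responses rose in 5 of 27 cases and fell in 0, with 0 past the threshold after HBSS or BSA. Ccl24 (eotaxin-2), which attracts eosinophils, was under noise on all 3 h arrays (5.60, 4.00, 4.33 and 5.26) and read 6.53, 8.38 and 7.78 at 12 h, at least 3.33-fold higher (adjusted p = 0.0021). Arg1, the arginase of alternatively activated macrophages, read 4.10, 4.00, 5.20 and 5.21 at 3 h and 6.84, 7.80 and 7.43 at 12 h, at least 2.88-fold higher (adjusted p = 0.00036). All 12 h arrays lay above all 3 h arrays for both. Retnla, a secreted product of the same cells and of epithelium, rose by 2.48 ± 0.61 to 13.03, 13.07 and 12.95 (adjusted p = 0.0172; 0.066 without MACA 12 h replicate 2 and 0.0508 without replicate 3), and after BSA it gave 2.23 (adjusted p = 0.053). Fcer2a, the low-affinity IgE receptor, rose by 1.12 ± 0.30 (adjusted p = 0.0287), and its adjusted p was 0.0507 to 0.104 without any one of 6 MACA arrays. After BSA Fcer2a gave the same 1.12 (adjusted p = 0.053).

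Chil3, a chitinase-like protein of alveolar macrophages, gave 0.42 ± 0.35 (adjusted p = 0.544), and Ccl22 gave 0.59 ± 0.43 (adjusted p = 0.463). Clca1, a goblet cell protein chosen after its values were seen, read 4.00, 4.76, 4.30 and 4.49 at 3 h and 6.23, 8.53 and 7.93 at 12 h, and the change did not pass (adjusted p = 0.0532). The list count was 3 without MACA 3 h replicate 1, 3 or 4 and 2 without MACA 12 h replicate 2 or 3. Against HBSS the change was larger by 3.80 for Ccl24 (adjusted p = 0.0128; 0.0784 in a model with a term for the technical set) and by 2.40 for Arg1 (adjusted p = 0.0243; 0.0707 without HBSS 12 h replicates 1 and 2 and 0.0639 without replicates 3 and 4). Of 18 markers of eosinophils, basophils and mast cells 0 passed and 5 were above noise on any MACA array, with a summed intensity of 3083 to 3744 at 3 h and 3252 to 3612 at 12 h.

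Matrix genes moved in both directions, with 3 of 21 higher and 5 lower. Timp1, the inhibitor of metalloproteinases, read 9.29, 10.31, 9.21 and 10.19 at 3 h and 11.68, 12.25 and 12.03 at 12 h (2.24 ± 0.50, adjusted p = 0.0096; 0.0524 without MACA 12 h replicate 2). Tnc (tenascin C), a matrix protein laid down after injury, read 8.22, 8.85, 7.76 and 8.15 at 3 h and 9.86, 10.21 and 10.15 at 12 h (1.83 ± 0.26, adjusted p = 0.000432), and rose more than after HBSS (by 1.62, adjusted p = 0.0256, lost without any one of 6 of 14 arrays). Mmp12, the macrophage elastase, rose by 1.68 ± 0.31 (adjusted p = 0.003). The collagen gene Col3a1 gave 0.02 ± 0.14 by its brightest probe set (adjusted p = 0.991) and 0.86 by a dimmer one that passed (adjusted p = 0.0318), and among the genes that fell was Mmp2 (-0.87 ± 0.14, adjusted p = 0.0014), a gelatinase of fibroblasts, chosen after its values were seen. The number that fell was 2 without MACA 12 h replicate 2 and 3 without replicate 1 or replicate 3.

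Macrophage and monocyte markers rose in 3 of 15 cases and fell in 1, with a median of 0.46. Ccr2, the receptor that brings monocytes from blood, read 7.34, 7.72, 7.03 and 6.99 at 3 h and 8.92, 9.38 and 9.51 at 12 h (2.00 ± 0.29, adjusted p = 0.000522). Fcgr1, the high-affinity IgG receptor, rose by 1.21 ± 0.19 (adjusted p = 0.000989) and Itgax (CD11c) by 0.91 ± 0.15 (adjusted p = 0.0014), both without overlap of the groups. Fabp1, a fatty acid binding protein of alveolar macrophages, went down to under noise on all 12 h arrays, at least 2.10-fold (adjusted p = 0.0039). The summed intensity of the 15 markers was 21360 to 23857 at 3 h and 19992 to 21978 at 12 h, and Lyz2, the lysozyme of the lineage, gave 0.01 ± 0.05 (adjusted p = 0.949). The markers that rose numbered 5 without MACA 3 h replicate 2. Of 21 pattern recognition receptors 2 rose, and 1 without MACA 12 h replicate 2. Tlr1, a partner of TLR2, rose by 0.72 ± 0.12 (adjusted p = 0.0015), and rose after HBSS (0.52, adjusted p = 0.0177) and BSA (0.80, adjusted p = 0.0019) as well. Clec7a, which encodes the β-glucan receptor dectin-1, gave 0.27 ± 0.22 (adjusted p = 0.52).

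Several replication licensing genes rose. Of 27 cell cycle genes 8 rose and 0 fell (median 0.30), and 4 without MACA 12 h replicate 2. MCM proteins form the helicase loaded at replication origins. Mcm6 read 7.70, 8.13, 7.50 and 7.69 at 3 h and 9.10, 9.79 and 9.29 at 12 h (1.64 ± 0.19, adjusted p = 9.29e-05). Mcm2 rose by 1.34 ± 0.15 (adjusted p = 7.25e-05) and Mcm5 by 1.33 ± 0.17 (adjusted p = 0.000149). Each of these 3 had all 12 h arrays above all 3 h arrays. Mcm3, chosen after its values were seen, rose by 0.72 ± 0.16 (adjusted p = 0.0111; 0.0683 without MACA 12 h replicate 2), but a dimmer probe set of it, with a mean under noise, was called in the opposite direction. Mcm4 gave 0.38 ± 0.13 and did not pass (adjusted p = 0.0834). The thymidine kinase Tk1 rose by 1.15 ± 0.31 (adjusted p = 0.0293; 0.0585 to 0.163 without MACA 3 h replicate 1, 12 h replicate 1 or 12 h replicate 2), while Rrm1, a ribonucleotide reductase subunit, gave 0.23 ± 0.17 (adjusted p = 0.458). Against HBSS the change was larger by 1.34 for Mcm5 (adjusted p = 0.0121), 1.33 for Mcm6 (0.0206; 0.0566 without HBSS 3 h replicate 3 and 0.0594 without MACA 12 h replicate 2) and 0.87 for Mcm2 (0.0394, lost without any one of 11 of 14 arrays). After HBSS 1 gene of the list rose and after BSA 0.

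Interferon-stimulated genes split. Of 25 measured 6 rose and 2 fell, with a median of 0.30. Bst2 (tetherin), which holds budding virus at the cell surface, read 8.35, 8.60, 8.81 and 8.39 at 3 h and 9.24, 9.82 and 9.45 at 12 h (0.96 ± 0.15, adjusted p = 0.0011). Cmpk2, a mitochondrial nucleotide kinase, rose by 1.06 ± 0.22 (adjusted p = 0.0062), while another probe set of Cmpk2 gave 0.29 (adjusted p = 0.263). Mx1, the influenza restriction GTPase, rose by 1.16 ± 0.29, with overlapping groups (adjusted p = 0.0191; 0.0541 to 0.119 without 1 of 3 MACA arrays). Irf1, the transcription factor that responds to interferon and NF-kB early, fell by 0.91 ± 0.13, from 11.37, 11.91, 11.75 and 11.99 to 10.67, 11.02 and 10.85 (adjusted p = 0.000526). The change of Bst2 exceeded that after HBSS by 0.98 (adjusted p = 0.0252, lost without any one of 5 of 14 arrays). After BSA 4 genes of the list rose and 0 fell, with a median of 0.26, and after HBSS 0 passed. Against BSA the change after MACA was more negative in 2 genes and more positive in 0. Within the high technical set 1 gene of the list rose.

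The promoter of Bst2 is shown because 12 of 21 interferon-list genes with a promoter entry (57.1%) matched the interferon-stimulated response element. The motif was searched as GAAA, any 2 bases, then GAAA, on both strands, in any promoter of a gene. It was in 3.99% of 27025 genes with a promoter entry. Bst2 has 2 overlapping matches, in capitals, that begin at -130 and -124 from the start. Among genes with a promoter entry, the same motif was in 3.58% of those that rose and 4.06% of those that fell, beside 3.84% over the genes measured on the arrays.
Bst2, chr8:71537423-71537722, minus strand: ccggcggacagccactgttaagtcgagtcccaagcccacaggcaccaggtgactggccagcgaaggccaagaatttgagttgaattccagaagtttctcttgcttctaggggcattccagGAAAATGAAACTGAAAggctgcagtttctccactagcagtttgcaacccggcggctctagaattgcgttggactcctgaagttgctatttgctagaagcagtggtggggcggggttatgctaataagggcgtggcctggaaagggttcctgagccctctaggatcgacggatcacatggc

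Antigen processing by MHC class I rose in 5 of 11 genes, with 0 lower and a median of 0.41. Psme1, a proteasome activator subunit, read 11.48, 11.49, 11.28 and 11.44 at 3 h and 11.85, 11.97 and 11.99 at 12 h (0.52 ± 0.09, adjusted p = 0.0016), and rose more than after HBSS (by 0.75, adjusted p = 0.0086). In a model with a term for the technical set this difference from HBSS did not pass (adjusted p = 0.0749). Psmb8, Tap1 and Tapbp, the immunoproteasome catalytic subunit, the peptide transporter and its loading partner, rose by 0.55, 0.52 and 0.52 (adjusted p = 0.0243, 0.0229 and 0.0305), each lost without any one of 4 MACA arrays. Another probe set of Tapbp gave 0.18 and did not pass (adjusted p = 0.711). After BSA 5 genes of this list rose and after HBSS 0. The receptor chains B2m and H2-D1 gave 0.10 and 0.03 and did not pass by their brightest probe sets. Other probe sets of H2-D1, a gene with near-identical relatives, gave -0.12 to 0.27, of which those at 0.27, 0.26 and 0.19 passed (adjusted p = 0.0452, 0.0211 and 0.0465). Of 9 class II genes H2-DMa, a peptide exchange chaperone, rose (0.66 ± 0.13, adjusted p = 0.0044), and Cd74, the invariant chain, gave 0.14 ± 0.07 (adjusted p = 0.227). The count of the class I list was 1 to 3 without any one MACA array other than 3 h replicate 2. Complement genes rose in 3 of 13 cases and fell in 0. Cfb, factor B of the alternative pathway, rose by 1.61 ± 0.35 (adjusted p = 0.0086; 0.0567 without MACA 12 h replicate 2), and C1ra, a protease of C1, by 0.59 ± 0.12 (adjusted p = 0.0052).

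The 2 largest falls, of Dbp and Nr1d1, were of clock genes, and the list moved in all 3 treatments. Of 17 measured 11 fell and 3 rose after MACA, 10 and 4 after HBSS, and 10 and 3 after BSA, with medians of -1.07, -1.37 and -1.29. In the clock, Arntl (BMAL1) pairs with Clock or Npas2 to switch on the Per and Cry repressors, the Nr1d receptors and the PAR factors Dbp, Tef and Hlf. Dbp read 11.16, 11.04, 10.40 and 10.03 at 3 h and 5.44, 5.39 and 5.77 at 12 h after MACA, at least 28.4-fold lower (-5.12 ± 0.29, adjusted p = 4.84e-08), against -5.22 after HBSS and -5.12 after BSA. Nr1d1, a repressor of Arntl, read 9.52, 9.11, 9.15 and 9.52 at 3 h and 5.20, 4.36 and 4.00 at 12 h, at least 11.3-fold lower (adjusted p = 8.27e-05), against -4.02 and -3.60. The 12 h arrays of both genes were all under noise. The hour of day at which lungs were taken is not given in the sources used here, so it and the time after treatment cannot be told apart.

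The other limb of the clock rose. Npas2 was under noise at 3 h (5.42 to 5.67) and read 7.94, 7.86 and 8.24 at 12 h, at least 4.54-fold higher (2.50 ± 0.27, adjusted p = 4.94e-05), and rose by 3.61 after HBSS (adjusted p = 1.62e-06) and 2.02 after BSA (adjusted p = 0.00089). Arntl read 5.66, 5.37, 7.03 and 6.70 at 3 h and 8.19, 8.20 and 8.53 at 12 h (2.12 ± 0.31, adjusted p = 0.000522), and rose by 3.42 and 2.67. Clock itself rose by 0.38 ± 0.09 (adjusted p = 0.016; 0.0892 without MACA 12 h replicate 3), while another probe set of Clock gave 0.19 (adjusted p = 0.428). The repressors Per1, Per2 and Per3 fell (-2.31 ± 0.36, -1.84 ± 0.40 and -2.18 ± 0.20, adjusted p = 0.000908, 0.0089 and 1.07e-05), as did Cry2 (-1.07 ± 0.18, 0.0014), Nr1d2 (-2.97 ± 0.35, 9.76e-05), Tef (-2.02 ± 0.13, 2.54e-07) and Hlf (-1.92 ± 0.34, 0.0021).

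Rora and Bhlhe40 fell by 0.59 ± 0.14 (adjusted p = 0.0153) and 0.70 ± 0.17 (0.0183), with calls that ended without MACA 12 h replicate 1, among others (0.0587 and 0.0854). Cry1 (0.38 ± 0.22), Nfil3 (0.63 ± 0.21) and Bhlhe41 (-0.24 ± 0.21) did not pass. For 0 of the 17 genes did the change after MACA differ from that after HBSS or BSA. For Dbp the differences were 0.09 (adjusted p = 0.953) and -0.00 (adjusted p = 1), and the largest in size against HBSS was that of Arntl, -1.30 (adjusted p = 0.114). Such p-values do not show that the treatments act alike.

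**Figure D4:**
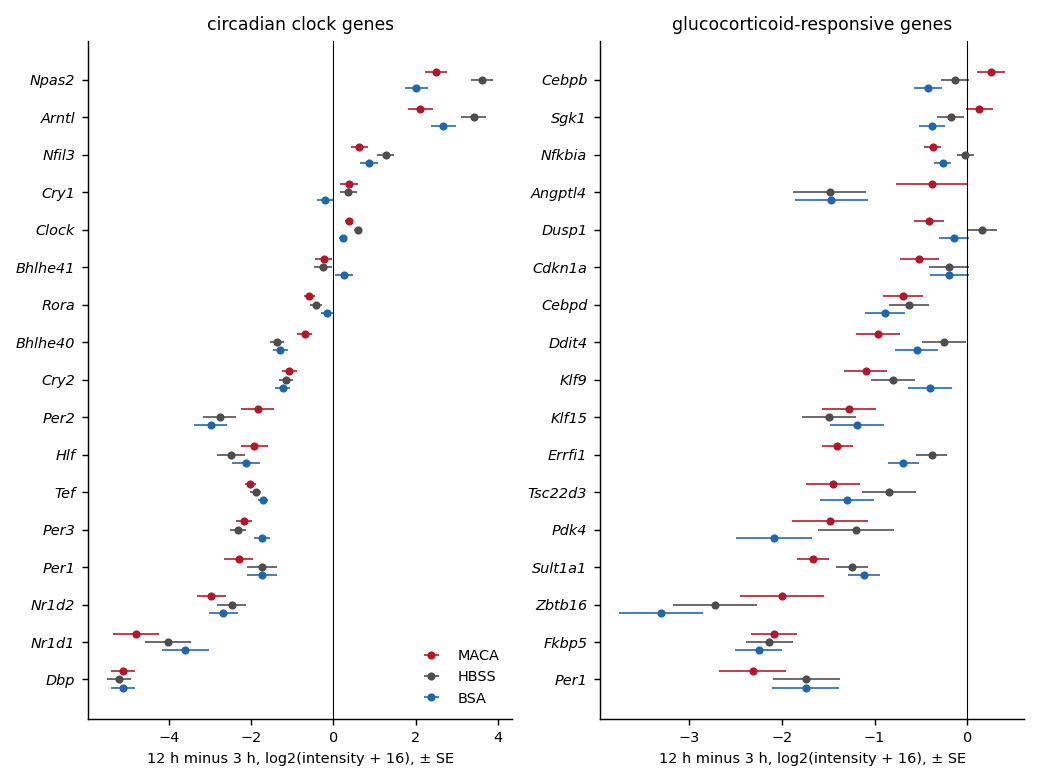
Change between 3 h and 12 h in log2(intensity + 16), with SE bars, after MACA (red), HBSS (grey) and BSA (blue) for 17 clock genes (left) and 17 glucocorticoid-responsive genes (right). Dbp lies near -5 in all 3 treatments and Npas2 and Arntl above 2, and Errfi1 lies at -1.40 after MACA, -0.39 after HBSS and -0.69 after BSA.

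Promoters of Per1 and Per3 are shown for the clock's own motifs, in capitals. The E-box searched was CACGTG and the D-box TTATGNAA, the motif of the PAR factors, both on both strands. Per1 has an E-box at -166 from the start and a D-box at -24, and Per3 has D-boxes at -205 and -158. Counted by gene, in any of its promoters, E-boxes were in 4 of 15 clock genes with a promoter entry (26.7%). They were in 8.09% of all 27025 such genes, and D-boxes in 2 of 15 (13.3%) and in 3.99%. Over the genes that fell the E-box share was 12.8%, and over those that rose 11.3%, beside 10.8% over the genes measured on the arrays.
Per1, chr11:69098699-69098998, plus strand: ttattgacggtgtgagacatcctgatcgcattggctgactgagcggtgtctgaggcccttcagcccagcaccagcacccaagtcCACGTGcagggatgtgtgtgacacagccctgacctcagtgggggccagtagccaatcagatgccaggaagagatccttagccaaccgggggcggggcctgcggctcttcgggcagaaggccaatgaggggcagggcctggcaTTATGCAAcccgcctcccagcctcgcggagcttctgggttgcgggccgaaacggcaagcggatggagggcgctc
Per3, chr4:151044616-151044915, minus strand: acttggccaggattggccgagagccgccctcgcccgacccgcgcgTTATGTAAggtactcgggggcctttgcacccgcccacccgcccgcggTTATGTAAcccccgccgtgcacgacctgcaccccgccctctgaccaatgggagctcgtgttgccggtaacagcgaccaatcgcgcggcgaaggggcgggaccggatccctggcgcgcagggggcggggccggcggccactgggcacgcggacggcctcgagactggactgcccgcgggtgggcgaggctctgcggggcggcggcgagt

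Genes that respond to glucocorticoid fell in 11 of 17 cases after MACA, with a median of -1.10, in 6 after HBSS (-0.80) and in 10 after BSA (-0.89). Fkbp5, the chaperone of the glucocorticoid receptor, read 10.07, 9.12, 9.89 and 9.50 at 3 h and 7.31, 7.70 and 7.68 at 12 h (-2.08 ± 0.25, adjusted p = 0.000102), against -2.13 and -2.25. Sult1a1, a sulfotransferase, fell by 1.67 ± 0.17 (adjusted p = 3.38e-05), against -1.24 and -1.12. Zbtb16 fell by 1.99 ± 0.45 (adjusted p = 0.0111; 0.0588 without MACA 12 h replicate 3), against -2.72 and -3.30. Dusp1 and Cebpd did not pass (adjusted p = 0.124 and 0.054). Errfi1, a feedback inhibitor of the EGF receptor chosen after its values were seen, fell by 1.40 ± 0.17 (adjusted p = 0.000102).

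Spon2 (spondin 2), a matrix protein that binds microbes, headed the genes that rose after MACA and rose in the vehicle lungs too. It read 5.55, 5.60, 6.02 and 6.44 at 3 h and 8.76, 8.67 and 8.78 at 12 h (2.83 ± 0.29, adjusted p = 3.22e-05), against 3.17 after HBSS and 2.93 after BSA. Map3k6, a stress kinase, fell by 2.47 ± 0.18 (adjusted p = 8e-07), against -1.98 and -2.15. For neither gene did the change differ between MACA and HBSS (adjusted p = 0.737 and 0.316).

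Enzymes of cholesterol synthesis rose in 9 of 14 cases after MACA (median 0.55), in 7 after HBSS (0.47) and in 4 after BSA (0.39), and in 5 after MACA without 12 h replicate 2. Dhcr7, the last step of the pathway, read 7.23, 7.17, 6.74 and 6.77 at 3 h and 8.84, 8.64 and 8.18 at 12 h (1.57 ± 0.18, adjusted p = 8.59e-05), and rose more than after HBSS (by 1.17, adjusted p = 0.0252, lost without any one of 6 of 14 arrays). Fdps, which makes farnesyl diphosphate, rose by 0.89 ± 0.17 (adjusted p = 0.0045). Sqle and Mvk rose by 0.72 ± 0.18 and 0.97 ± 0.25 (adjusted p = 0.0172 and 0.0241), with calls that ended without MACA 12 h replicate 1 (0.0678 and 0.077) or replicate 2 (0.102 and 0.0997), and for Mvk also without MACA 3 h replicate 1, 3 or 4 (0.0567 to 0.0631). Srebf2, the pathway's transcription factor, gave 0.20 ± 0.12 (adjusted p = 0.343).

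Stress programmes of the endoplasmic reticulum and of amino acid supply were mixed, with 6 of 18 lower and 2 higher, and 1 higher without any one MACA array. Among targets of the factor Atf4, Sesn2 fell by 0.93 ± 0.18 (adjusted p = 0.0041), Chac1 by 1.24 ± 0.28 (0.0114), Ppp1r15a by 0.99 ± 0.16 (0.001) and Trib3 by 1.74 ± 0.52 (0.0455; 0.067 to 0.137 without any one of 6 MACA arrays). The chaperone Hspa5 (BiP) gave -0.05 ± 0.19. Hyou1, another chaperone of that organelle and outside the list, rose by 0.97 ± 0.17 (adjusted p = 0.002). Of 14 heat shock genes 1 fell: Hspb1 (HSP27) read 13.06, 12.94, 12.94 and 13.08 at 3 h and 11.93, 11.85 and 11.80 at 12 h (-1.15 ± 0.13, adjusted p = 4.97e-05). It fell by 1.06 after BSA (adjusted p = 0.000291) and gave -0.37 after HBSS (adjusted p = 0.0884), a change that differed from that after MACA by -0.78 (adjusted p = 0.0284, lost without any one of 6 of 14 arrays). The metal-binding Mt1 fell by 1.34 ± 0.24 (adjusted p = 0.0025), and fell by 1.12 after HBSS and 1.56 after BSA. With Gclc (-0.82 ± 0.23, adjusted p = 0.0302, lost without any one of 5 MACA arrays), which makes glutathione's precursor, it was 1 of 2 genes that fell among 15 of oxidative stress and metal binding, and 0 rose. Of 12 genes of itaconate, nitric oxide and arginine metabolism, Arg1 rose and Sat1, an acetylase of polyamines, fell (-0.39 ± 0.10, adjusted p = 0.0195; 0.052 without MACA 3 h replicate 4 and 0.122 without MACA 12 h replicate 2). Of 17 nucleolar genes 0 passed, and Ncl gave 0.05 ± 0.20.

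Some genes of fat storage fell. Of 16 measured 5 fell and 0 rose, with a median of -0.92. Car3, a carbonic anhydrase abundant in fat and muscle, read 8.22, 9.78, 11.78 and 9.73 at 3 h and 5.69, 6.21 and 6.49 at 12 h (-3.75 ± 0.81, adjusted p = 0.0085). Acaa1b, a peroxisomal thiolase, was under noise on all 12 h arrays and at least 4.33-fold lower (-2.61 ± 0.31, adjusted p = 8.98e-05), and Dgat2, which makes triglyceride, fell by 1.66 ± 0.32 (adjusted p = 0.0034). Fabp4, the fatty acid binding protein of adipocytes, fell by 2.32 ± 0.58 (adjusted p = 0.0193), and not past the threshold without MACA 3 h replicate 3, 12 h replicate 1 or 12 h replicate 2 (0.0537 to 0.0839). Adipoq, an adipocyte hormone chosen after its values were seen, gave 5.71, 6.87, 9.37 and 6.67 at 3 h and 4.47, 4.66 and 5.17 at 12 h and did not pass (adjusted p = 0.0902). The 3 h arrays spread widely for Car3, Fabp4 and Adipoq, with replicate 3 highest and replicate 1 lowest in each.

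The summed intensity of the 16 fat genes was 10673 to 18798 at 3 h and 11938 to 12726 at 12 h. Scd1, the stearoyl desaturase, is the brightest of those that did not pass, at 12.49, 12.41, 12.77 and 12.46 at 3 h and 13.01, 13.01 and 12.97 at 12 h. Within the high technical set 2 of the 16 fell. The part of fat tissue in these falls was not tested. Against HBSS the change of Acaa1b was more negative by 2.12 (adjusted p = 0.0199; 0.0586 without HBSS 3 h replicate 3 and 0.0615 without MACA 12 h replicate 2), and those of Car3 and Fabp4 did not pass (adjusted p = 0.0703 and 0.102).

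Muscle genes fell in 4 of 20 cases, with 0 higher and a median of -0.64. Tcap (telethonin), a cap protein of the sarcomere, read 8.61, 9.24, 9.42 and 9.54 at 3 h and 6.50, 5.99 and 6.33 at 12 h (-2.93 ± 0.23, adjusted p = 1.67e-06), and fell by 1.03 after HBSS (adjusted p = 0.013) and 1.02 after BSA (adjusted p = 0.0226). Its change differed from that after HBSS (-1.89, adjusted p = 0.0105) and after BSA (-1.91, adjusted p = 0.0297), the latter lost without any one of 7 of 14 arrays. In a model with a term for the technical set neither difference passed (adjusted p = 0.11 and 0.256). Pln (phospholamban), a regulator of the heart's calcium pump, fell by 1.42 ± 0.27 (adjusted p = 0.0032), while 1 of its other probe sets, at -0.93, did not pass (adjusted p = 0.0517). Myh6, the atrial myosin heavy chain, fell by 1.08 ± 0.27 (adjusted p = 0.018; 0.0501 to 0.0986 without MACA 3 h replicate 4, 12 h replicate 1 or 12 h replicate 2), while Actc1, cardiac actin, gave 0.03 ± 0.18 (adjusted p = 0.967). The count of the list was 9 without MACA 3 h replicate 1 and 2 without MACA 3 h replicate 4, MACA 12 h replicate 1 or MACA 12 h replicate 2. The summed intensity of the 20 genes was 9069 to 17014 at 3 h and 6825 to 9145 at 12 h after MACA, and 12500 to 19964 at 12 h after HBSS. Heart muscle is found in the walls of the mouse pulmonary veins, and whether the tissue taken has a part in these changes was not tested.

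**Figure D5:**
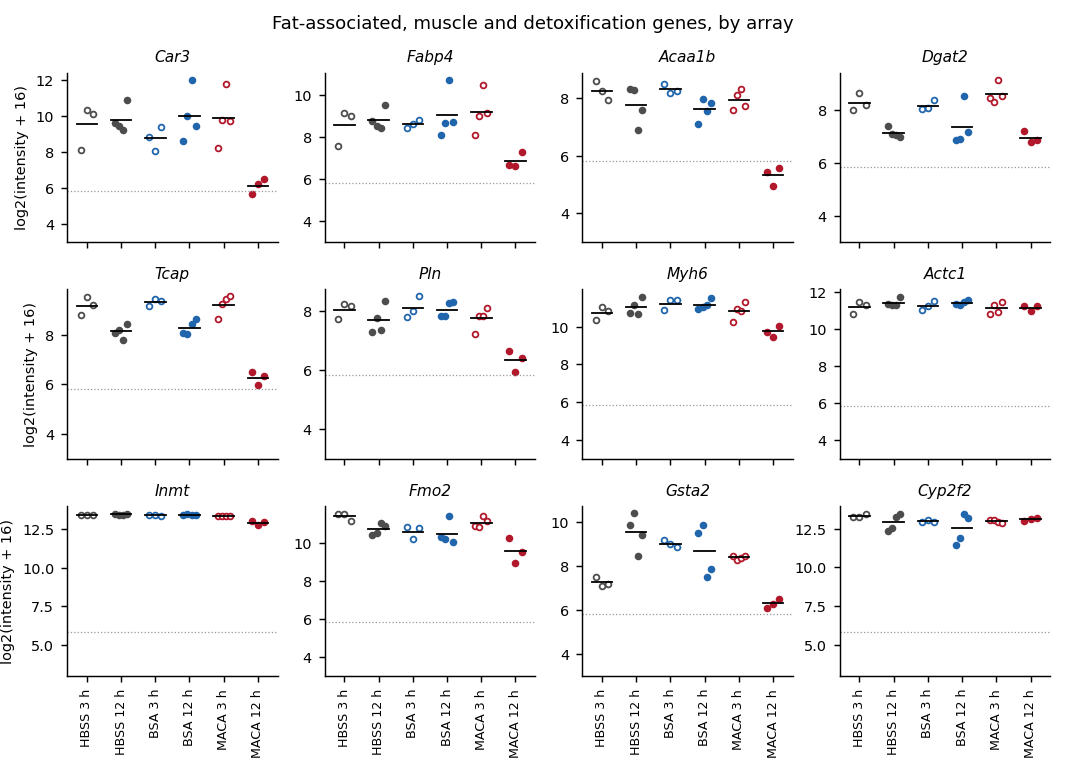
Values of 12 fat, muscle, fibroblast and detoxification genes on each of the 21 arrays, in log2(intensity + 16), by treatment and time (open circles 3 h, filled circles 12 h, bars group means, dotted line the noise level of 5.83). Car3, Acaa1b, Tcap and Gsta2 are lowest on the 3 MACA 12 h arrays, while Actc1 and Cyp2f2 overlap between the times.

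Detoxification enzymes, many of them made by club cells of the airway, fell in 7 of 21 cases after MACA and rose in 0 (3 without MACA 12 h replicate 2). Gsta2, a glutathione transferase, read 8.46, 8.30, 8.40 and 8.45 at 3 h and 6.11, 6.29 and 6.52 at 12 h (-2.10 ± 0.48, adjusted p = 0.0119; 0.0502 without MACA 12 h replicate 2), whereas it rose by 2.28 after HBSS (adjusted p = 0.0111) and gave -0.35 after BSA (adjusted p = 0.75). The difference from HBSS was -4.38 (adjusted p = 0.0065), -3.78 without HBSS 12 h replicates 1 and 2 and -4.98 without replicates 3 and 4, and it passed whichever array was left out. Nqo1, a quinone reductase, was chosen after its values were seen. It gave -0.67 ± 0.27 after MACA (adjusted p = 0.137) and rose by 1.47 after HBSS (adjusted p = 0.0048). Fmo2, the flavin monooxygenase of lung, fell by 1.50 ± 0.32 (adjusted p = 0.0075; 0.0585 without MACA 12 h replicate 2), Ephx1, epoxide hydrolase, by 0.83 ± 0.10 (0.000149) and Cyp2b10 by 0.68 ± 0.09 (0.000376).

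The airway and alveolar lineage markers themselves did not pass, with 1 exception. Cyp2f2, the defining P450 of club cells, gave 0.12 ± 0.37 (adjusted p = 0.914) and Scgb1a1, their secretoglobin, -0.01 ± 0.04 (adjusted p = 0.911). Of 16 airway markers 0 passed and of 16 alveolar markers 1 did (Cav1, caveolin 1, -0.17 ± 0.05, adjusted p = 0.0474, lost without any one MACA array). Summed intensity was 42768 to 52421 at 3 h and 42866 to 49665 at 12 h for airway markers, and 88503 to 91249 and 86860 to 90084 for alveolar markers. The mature surfactant gene Sftpc read 13.68 to 13.76 at both times. These defining lung transcripts were among the brightest on all 7 arrays.

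Some stromal and vessel markers fell. Of 20 fibroblast and smooth muscle markers 3 fell and 1 rose (Acta2, smooth muscle actin, lost without any one of 6 MACA arrays). Dcn (decorin), a proteoglycan of fibroblasts, read 10.66, 10.83, 11.47 and 10.84 at 3 h and 9.79, 9.58 and 10.18 at 12 h (-1.10 ± 0.19, adjusted p = 0.0021), and Fbln1 (fibulin 1) fell by 0.89 ± 0.15 (adjusted p = 0.0013). Inmt, an indole methyltransferase that is among the most abundant lung transcripts, went from 13.35, 13.33, 13.34 and 13.31 to 13.01, 12.74 and 12.91 (-0.44 ± 0.05, adjusted p = 7.66e-05) and differed from HBSS (-0.47, adjusted p = 0.0065) and BSA (-0.46, adjusted p = 0.0224). In a model with a term for the technical set the difference of Inmt from HBSS passed (adjusted p = 0.0246) and that from BSA did not (adjusted p = 0.144). With arrays scaled to the same median instead of by quantiles the fall of Inmt did not pass (adjusted p = 0.211). The list's summed intensity was 51216 to 54872 at 3 h and 45632 to 49251 at 12 h.

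Of 21 endothelial markers 3 fell and 0 rose (14.3%), with a median of 0.0, beside 4.94% of all genes that fell. The vehicle lungs gave 3 lower and 1 higher, and the BSA lungs 2 lower and 2 higher. For 0 of these markers did the change after MACA differ from that after HBSS or BSA. Ednrb, the endothelin B receptor, fell by 1.17 ± 0.21 (adjusted p = 0.0026), Lyve1, the hyaluronan receptor of lymphatic vessels, by 0.52 ± 0.12 (adjusted p = 0.01; 0.0508 without MACA 12 h replicate 3), and Pecam1 gave -0.10 ± 0.09 (adjusted p = 0.534). The markers summed to 55836 to 59515 at 3 h and 54236 to 58399 at 12 h. Of 8 erythroid and platelet markers 1 fell (Ppbp, lost without any one MACA array), with sums of 3856 to 4665 and 2509 to 3089. T and NK cell markers (0 of 18), thymus markers (0 of 8) and B cell markers (1 of 11, Fcer2a) summed to 1994 to 2935 and 2384 to 3689, 517 to 1480 and 559 to 705, and 4347 to 6918 and 5388 to 6933, at 3 h and 12 h.

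Some genes of the 15 highest or lowest changes belong to no list. Cckar, the cholecystokinin A receptor, read 7.37, 7.81, 6.45 and 6.73 at 3 h and 9.98, 9.76 and 9.76 at 12 h (2.74 ± 0.46, adjusted p = 0.0014). The HBSS means were 9.59 at 3 h and 9.64 at 12 h, and the BSA means 7.26 and 8.84. The difference from HBSS was 2.69 (adjusted p = 0.0337), lost without any one of 9 of 14 arrays. Rnase2a, an eosinophil-associated ribonuclease, was under noise on all 3 h arrays and read 6.46, 6.54 and 6.55 at 12 h, at least 1.61-fold higher (adjusted p = 0.000561), with a difference of 2.57 from HBSS (adjusted p = 0.0116; 0.0721 in a model with a term for the technical set and 0.0529 without 12 h replicates 1 and 2) and 2.16 from BSA (adjusted p = 0.0451, lost without any one of 10 of 14 arrays). Agr2 and Fcgbp, secretory proteins of mucous cells, were under noise on all 3 h arrays and above it on 2 of 3 arrays at 12 h, at least 1.47-fold higher (adjusted p = 0.0041) and at least 1.12-fold higher (adjusted p = 0.0312; 0.0544 to 0.143 without any one of 6 MACA arrays).

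Adrenomedullin (Adm), a vasodilator peptide of endothelium and macrophages, was, with Inmt, 1 of the 2 genes examined by name whose difference from BSA passed whichever of the 14 arrays was left out. Adm read 9.52, 10.22, 9.98 and 10.22 at 3 h and 9.42, 9.91 and 9.32 at 12 h after MACA, and this change of -0.43 ± 0.23 did not pass (adjusted p = 0.284), while it rose by 1.79 after BSA (adjusted p = 0.000649) and 1.00 after HBSS (adjusted p = 0.0174). For Adm the difference from BSA was -2.22 (adjusted p = 0.0159; 0.00632 to 0.046 with each array left out in turn, 0.186 in a model with a term for the technical set). Scara5, a ferritin receptor of fibroblasts, fell by 1.53 ± 0.25 (adjusted p = 0.0013), with differences of -1.61 from HBSS (adjusted p = 0.0243, lost without any one of 4 of 14 arrays) and -1.86 from BSA (adjusted p = 0.0396, lost without any one of 8 of 14 arrays). The coagulation genes gave 4 falls and 1 rise of 21 (2 falls without MACA 3 h replicate 4 or 12 h replicate 1, and 0 rises without 3 h replicates 1, 3 or 4 or 12 h replicate 2), among them Plaur, the urokinase receptor (-0.88 ± 0.17, adjusted p = 0.0049), and the fibrinogen chain Fga, at least 1.93-fold lower at 12 h (adjusted p = 0.0017). Of 17 prostaglandin and leukotriene genes 4 fell (0 without MACA 12 h replicate 2) and 3 rose (1 without MACA 12 h replicate 3). Ptgs2 (COX-2) fell by 0.92 ± 0.24 (adjusted p = 0.0225; 0.0693 without MACA 3 h replicate 4 and 0.138 without 12 h replicate 2), and Tbxas1, thromboxane synthase, rose by 0.83 ± 0.18 (adjusted p = 0.0075).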

How the data were processed

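RNA of left lung was labelled as biotinylated cRNA and hybridised to 1-colour arrays, 21 in 6 groups. The deposited table holds linear probe set intensity, with values below 0; how the authors scanned, summarised and scaled the arrays is not given in the sources used here, and per the file headers the columns are the 21 arrays. Controls (64 probe sets) were dropped, and the 22626 other probe sets were quantile-normalized between arrays, set to a floor of 0 and converted to log2 of the deposited intensity plus 16. The size of the values below 0 gave the noise level (95th percentile, 40.9). A model of 6 group means (limma 3.58.1, R 4.3.3, 15 residual degrees of freedom) gave 5 comparisons: 12 h minus 3 h after MACA, HBSS and BSA, and MACA's difference minus each of the others. Its adjusted p-values measure the spread between these arrays, and their number limits the precision.

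On data simulated for the MACA comparison, with 22626 probe sets, 87% of changes of 1 log2 unit and 100% of changes of 2 were recovered, and 14 unchanged probe sets were called. The changes were planted only in probe sets well above the noise level, so recovery of dim genes was not tested. The simulated spread was normal and independent between arrays. It held no floor at 4.00, no technical sets and no pairs among the 12 h arrays. Of the probe sets 20380 had 1 gene symbol, 691 several and 1555 none, from the platform annotation, and 20351 matched the reference; a gene was read from its brightest probe set. Promoters are from RefSeq (GRCm38.p6). The 42 lists, 675 of 745 symbols measured, and the members were chosen with earlier results of these data known. Genes were named by rule: the 15 highest and 15 lowest changes that passed, without overlap and above noise; 5 in each direction for each difference between treatments; in each list, up to 4 that passed and 2 that did not; all clock genes. Alternatives were other scaling, pseudocounts, filters, designs and left-out arrays. Figures used matplotlib 3.10.9.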

Additional observations from a re-analysis of the deposited data

Results flagged for a closer look

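The same 4 MACA 3 h arrays were tested in each of 135 named genes that passed. In 3 genes 1 array lay far from the others, no more than the about 1 in 20 that chance gives. Ptgs2 was highest on MACA 3 h replicate 4, at 9.70. Fcgr1 was lowest on that array, at 6.24, and Havcr2, an inhibitory receptor of T cells and macrophages also known as TIM-3, was lowest on MACA 3 h replicate 1, at 5.44.

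The time difference after MACA differed from that after HBSS by the interaction term in 660 probe sets. The named genes were Prss22 (-5.70), Cldn4 (-4.44), Fosl1 (-4.41), Gsta2 (-4.38) and Nupr1 (-3.21) on the negative side, and Ccl24 (3.80), Pigr (2.96), Cckar (2.69), Rnase2a (2.57) and Arg1 (2.40) on the positive side, in log2 units.

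Against BSA the interaction term passed in 106 probe sets. Adm (-2.22), Cd83 (-2.08), Ltc4s (-1.92), Tcap (-1.91) and Scara5 (-1.86) were more negative after MACA, and Rnase2a (2.16), Hpx (1.80), Rpl27a (1.53), Hyou1 (1.24) and Havcr2 (1.05) more positive. Of these 10 genes, Adm alone kept its call without HBSS and BSA 12 h replicates 3 and 4 (-2.26, adjusted p = 0.0226). Ltc4s, leukotriene C4 synthase, fell by 1.17 after MACA (adjusted p = 0.0164; 0.0612 without MACA 12 h replicate 2) and gave 0.74 after BSA (adjusted p = 0.157). Rpl27a, a ribosomal protein gene, rose by 0.85 after MACA with overlapping groups (adjusted p = 0.0216; 0.054 to 0.102 without MACA 3 h replicates 3 or 4 or 12 h replicates 1 or 2) and gave -0.68 after BSA (adjusted p = 0.0956).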

How the results depend on the processing

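Counts of probe sets moved by over 1.5 times as follows, in the order MACA, HBSS, BSA, MACA minus HBSS and MACA minus BSA where all are given. Without scaling between arrays they were 125 (63 higher and 62 lower), 12672 (12588 and 84), 31, 3431 (35 and 3396) and 0 by limma, where as reported they were 2063, 1569 (800 and 769), 771, 660 (344 and 316) and 106; without scaling the median of all genes shifted by 0.72 after HBSS, -0.66 for MACA minus HBSS and 0.10 or less in size otherwise. At an unadjusted p under 0.05, 1116 probe sets passed for MACA minus BSA without scaling and 3872 as reported. With 1 probe set per gene MACA gave 1331 and HBSS 977. With the spread of only the arrays compared MACA gave 889, BSA 23 and MACA minus BSA 4. With the technical set as a term BSA gave 368, MACA minus HBSS 370 and MACA minus BSA 1, and within the high set MACA gave 1137, BSA 168 and MACA minus BSA 16; HBSS has no 12 h array in that set. MACA minus BSA gave 42 with arrays scaled to 1 median and 61 with a generalized log. Without HBSS and BSA 12 h replicates 1 and 2, HBSS gave 357, BSA 3121, MACA minus HBSS 185 and MACA minus BSA 2031. In that setting time and technical set cannot be told apart in BSA, as in HBSS. Without replicates 3 and 4, BSA gave 162, MACA minus HBSS 1011 and MACA minus BSA 55. Each array left out in turn gave 933 to 1943 for MACA, 533 to 1237 for HBSS, 184 to 1240 for BSA, 191 to 830 for MACA minus HBSS and 9 to 265 for MACA minus BSA. The cause of these moves was not tested. Leaving out pairs of 12 h replicates was added after seeing the data.

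With the replicate number as a block the counts were 1990, 1570, 754, 367 and 21. Deviations of same-numbered MACA arrays correlated at 0.154, 0.031 and -0.0291, so the numbers were not taken to pair the arrays.

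Of 135 calls of named genes, 93 were lost without scaling, 55 with only the arrays compared, 52 within the high set, 18 with the technical set as a term, 6 with the replicate block and 12 to 40 with 1 MACA array left out. The side with more calls changed with arrays scaled to 1 median for HBSS (557 higher and 835 lower), BSA (326 and 369, from 441 and 330) and MACA minus BSA (23 and 19, from 45 and 61). It also changed for MACA within the high set (616 and 521, from 1014 and 1049), for BSA without BSA 3 h replicate 2 (82 and 102) and for MACA minus BSA without 12 h replicates 1 and 2 (1174 and 857). With the technical set as a term MACA gave 953 and 879, and with 1 probe set per gene 693 and 638. For MACA minus HBSS, 344 and 316 became 136 and 234 with the technical set as a term and 230 and 253 with a generalized log. Without 12 h replicates 3 and 4 they became 436 and 575. Further settings, not all listed here, changed the side too.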
